A study of Homo sapiens with 4 samples.

Results

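The peaks described here lie on the mitochondrial genome (chrM) or in a copy of mitochondrial sequence on chromosome 1, in lists that set N6-methyladenosine (m6A) immunoprecipitates of 2 kinds of HEK293 cell against each other. They were taken by position: every peak on chrM, and every peak on chromosome 1 between 564 kb and 570.5 kb (hg19). This gave 36 mitochondrial peaks and 7 peaks of the nuclear copy, of 4889 peaks in the 4 deposited lists. HEK293 is a line derived from human embryonic kidney. Slow cells (replicates 1 and 2) expressed a slow-elongating α-amanitin mutant of RNA polymerase II (RNAPII). WT cells (replicates 1 and 2) are labelled wild type and control, while the design text speaks of α-amanitin mutants of RNAPII for the cells in general, so whether WT cells carry a mutant that α-amanitin spares is not settled here. All 4 cultures received 1 µg/ml doxycycline for 24 h and then doxycycline with 2.5 µg/ml α-amanitin for 42 h. WT cells thus met the toxin as well, which blocks ordinary RNAPII. Whether replicates of a group were separate cultures or clones is not labelled, and their spread may be a technical one.

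Mitochondrial DNA is transcribed by a single-subunit polymerase of its own, POLRMT, which α-amanitin does not inhibit, and not by RNAPII. Both strands are read as long precursors that are cut, mostly at tRNAs, into 2 rRNAs, the mRNAs of 13 genes for subunits of the respiratory chain and of ATP synthase, and 22 tRNAs. The METTL3 complex, which writes most m6A in mRNA, works on transcripts of the nucleus. Mitochondrial rRNA carries other adenosine methylations, among them N6,N6-dimethyladenosine made by TFB1M in the small-subunit rRNA. Nuclear copies of mitochondrial DNA are common in the human genome, and short reads from mitochondrial RNA can align to them.

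Each list compares 1 slow library with the WT library of the same number, and its peaks are called slow-higher where the slow library was in excess and WT-higher in the opposite case. The peak's fold is the authors' value, slow over WT or the reverse, after the caller had kept 1 read per position and strand and scaled the deeper WT library down. The slow libraries kept 698050 and 547402 reads in pairs 1 and 2, against 1695246 and 1136611 reads kept in the WT libraries, so 1 WT read counted as 0.412 and 0.482. The ratio of WT to slow reads kept, 2.43 in pair 1 and 2.08 in pair 2, is called the depth ratio. "WT fragments" below are the caller's WT background at a peak with this scaling undone. Among the mitochondrial peaks, 15 of 18 in pair 1 and 13 of 18 in pair 2 gave whole numbers of them (within 0.05), as a count of fragments over the summit does. At the other 3 and 5 peaks the caller had used the average of a wider window, which is at or above the WT coverage of the summit. There is no input library in these comparisons, so the amount of RNA and its methylation cannot be told apart.

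All 36 mitochondrial peaks and all 7 peaks of the nuclear copy were slow-higher. Each pair listed 18 slow-higher and 0 WT-higher peaks on chrM. Of all peaks called in pair 1, 67.3% were slow-higher, and of those in pair 2, 66.2%. The direction was as one-sided on the ribosomal RNA contig, with 30 and 24 slow-higher and 0 WT-higher peaks in either pair. Peaks chosen from these calls are described without a test, and 2 pairs could not give a two-sided p under 0.5 in an exact sign-flip test. The folds lay within a narrow range, 2.12 to 3.67 in pair 1 and 2.15 to 4.43 in pair 2. The mean over the pairs of the median fold was 2.63 ± 0.216 (SD, n = 2), against 6.75 ± 0.104 (SD, n = 2) for the slow-higher peaks outside the mitochondrial genome and its copy. Summits fell in 12 of the 37 mitochondrial genes, the 2 rRNAs and 10 mRNAs. The genes MT-ND5 and MT-ND6, with 6 and 2 peaks over the pairs, were found beside the 10 genes named for this description. Of the 22 tRNA genes, 0 were touched by a peak, and MT-ND3, MT-ND4L and MT-ATP8 had no summit of their own, leaving aside 1 summit where MT-ATP8 and MT-ATP6 overlap.

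**Figure D1:**
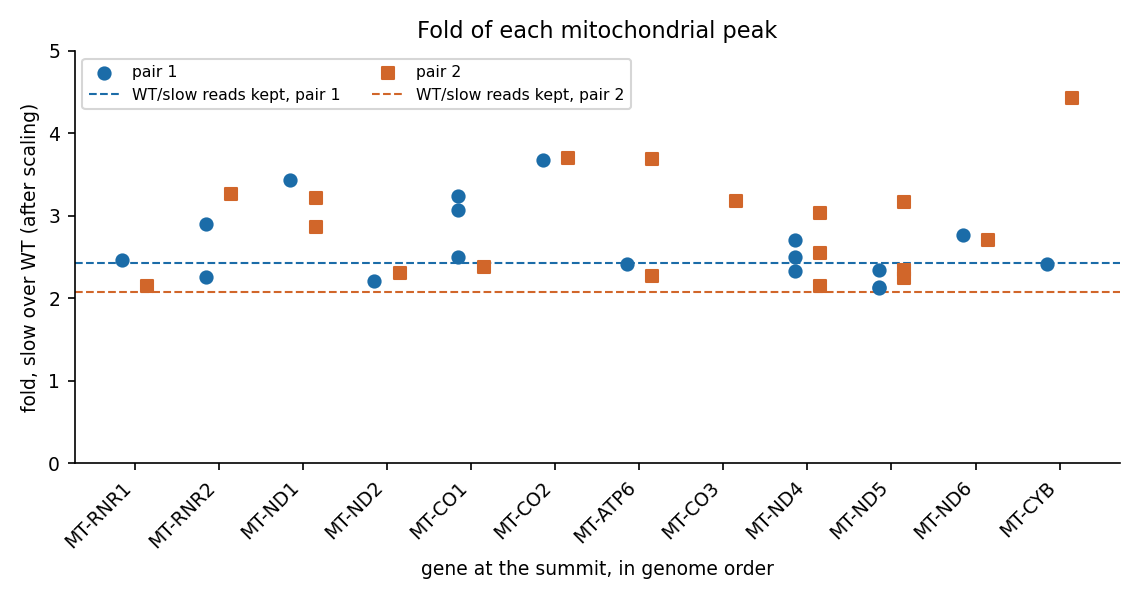
Fold of every mitochondrial peak, slow over WT after the caller's scaling (y axis), by the gene that holds its summit (x axis, in genome order), with pair 1 as circles, pair 2 as squares and dashed lines at the depth ratios of 2.43 and 2.08. The MT-CO2 peak was near 3.7 in both pairs, and all 18 squares but only 10 of 18 circles lie above the line of their pair.

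The 2 ribosomal RNAs held 3 peaks in pair 1 and 2 in pair 2. In MT-RNR1, the RNA of the small mitochondrial ribosomal subunit, the slow libraries had 100 and 90 fragments at the summit in pairs 1 and 2, against 97 and 86 WT fragments. Slow and WT counts were thus almost level in both pairs, and the folds of 2.47 and 2.15 lay just above the depth ratios. The peaks ran from 1079 to 1253 and from 1028 to 1243 on chrM, near the middle of the gene. In MT-RNR2, the RNA of the large subunit, the slow libraries had 89 and 87 fragments at summits 9 bp apart, against 73 and 54 WT fragments. Here the slow count was above the WT count in both pairs, and the folds were 2.90 and 3.26. A further MT-RNR2 peak of pair 1, from 2324 to 2496, had 70 slow fragments against 73.9 WT fragments. Its fold of 2.26 was below that of MT-RNR1 in the same pair. In pair 2 that stretch was part of 1 peak from 2101 to 2480.

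Complex I, the NADH dehydrogenase that feeds electrons into the respiratory chain, has 7 mitochondrial genes, all for subunits of its membrane arm, of which 5 had summits. These genes held 9 peaks of pair 1 (median fold 2.34) and 10 of pair 2 (median fold 2.63). MT-ND1, a subunit near the quinone site, was the highest of these genes in pair 1, with 83 and 68 slow fragments in pairs 1 and 2 against 57 and 48 WT fragments, folds of 3.43 and 2.86, and summits 1 bp apart. A further MT-ND1 peak, from 4020 to 4168, was listed in pair 2 alone (48 slow against 29.6 WT fragments, fold 3.21). MT-ND2, one of the proton-pumping subunits, was lower, with 65 and 48 slow fragments against 70 and 42 WT fragments and folds of 2.21 and 2.31. Its summits also lay 1 bp apart, in the 3′ part of the gene.

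MT-ND4, another proton-pumping subunit, carried 3 peaks in each pair, and all 3 overlapped their counterparts. The peak nearest the 5′ end had 93 and 69 slow fragments against 82 and 55 WT fragments, with folds of 2.70 and 2.55. The middle one had 104 and 82 slow against 107 and 78 WT fragments, with folds of 2.33 and 2.15, so neither library had a clear excess of fragments before scaling. The one nearest the 3′ end had 93 and 97 slow against 89 and 65 WT fragments, with folds of 2.50 and 3.03.

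MT-ND5, the subunit at the far end of the membrane arm, gave the lowest folds of pair 1. Its peak from 12890 to 13179 had 91 slow against 103 WT fragments in pair 1 (fold 2.12), and its counterpart had 66 against 60 in pair 2 (fold 2.24). The next region, from 13438 to 13803, had 91 slow against 102 WT fragments in pair 1 (fold 2.14) and 78 against 49.7 in pair 2 (fold 3.17), with summits 63 bp apart. At both regions the slow library of pair 1 held fewer fragments than the WT library before scaling, and that of pair 2 more. MT-ND5 had another peak in each pair without a counterpart, with folds of 2.34 and 2.34. MT-ND6 is encoded on the strand opposite to the other mitochondrial mRNAs. It had the highest mitochondrial summits of both slow libraries, 126 and 101 fragments, against 109 and 76 WT fragments, with folds of 2.77 and 2.71. Strand was not reported for these peaks, so reads of MT-ND6 and of the precursor from the other strand cannot be told apart.

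Cytochrome c oxidase (complex IV) held the peak with the highest fold of pair 1. Its median folds of 3.16 (4 peaks) and 3.18 (3 peaks) in pairs 1 and 2 were above those of complex I. The ranges overlapped, at 2.50 to 3.67 and 2.38 to 3.69 for complex IV. Those of complex I were 2.12 to 3.43 and 2.15 to 3.21. MT-CO2, the subunit that takes electrons from cytochrome c, had 113 and 97 slow fragments in pairs 1 and 2, against 73 and 53 WT fragments, and folds of 3.67 and 3.69. The excess was of the same size in both pairs, at summits 9 bp apart, and in pair 2 only MT-CYB had a higher fold. The ratio of slow to WT fragments before scaling was 1.55 (95% interval 1.14 to 2.11) in pair 1 and 1.83 (1.30 to 2.61) in pair 2. The peak covered 55.6% and 55.1% of the gene. In MT-CO1, the catalytic core subunit, the shared peak had 112 and 84 slow against 87 and 72 WT fragments, with folds of 3.07 and 2.38. Another 2 MT-CO1 peaks were listed in pair 1 alone, with folds of 2.50 and 3.24. MT-CO3 had a summit in pair 2 alone (61 slow against 38.4 WT fragments, fold 3.18), within a stretch that pair 1 covered by a long peak with its summit in MT-ATP6.

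Of the mitochondrial regions found in both pairs, MT-CYB differed most in fold between them. It encodes the mitochondrial subunit of complex III and had 74 and 76 slow fragments in pairs 1 and 2, against 73 and 34 WT fragments. The slow counts were close and the WT counts were not. The fold was 2.41 in pair 1, just below the depth ratio, and 4.43 in pair 2, the highest of all 36 peaks. Reads kept differed between the pairs in both groups, so these counts do not show which library moved the fold. Before scaling the ratio was 1.01 (95% interval 0.724 to 1.42) in pair 1 and 2.24 (1.47 to 3.46) in pair 2. MT-ATP6, a subunit of the proton channel of ATP synthase (complex V), had a shared peak with 97 and 79 slow against 96 and 71 WT fragments and folds of 2.42 and 2.27. A peak at its 5′ end was listed in pair 2 alone, with 61 slow against 32.9 WT fragments and a fold of 3.68. That summit lay in the overlap of MT-ATP6 with MT-ATP8, 7 bp from the end of MT-ATP8.

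**Figure D2:**
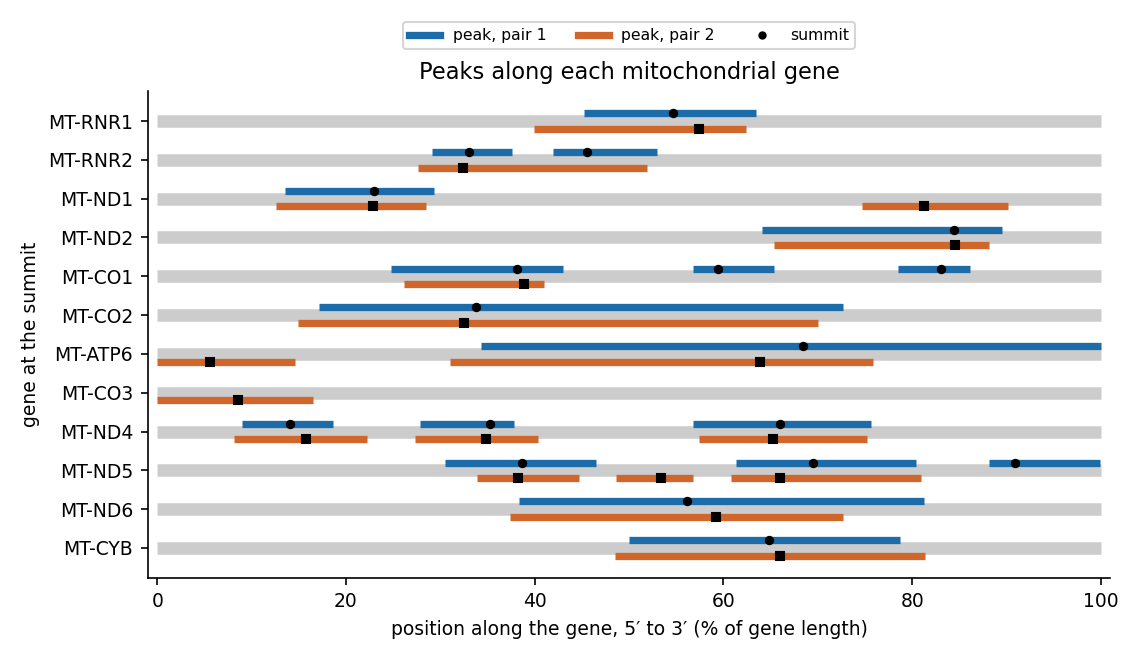
Extent of each mitochondrial peak along the gene that holds its summit, from the 5′ to the 3′ end as a percentage of gene length (x axis), with pair 1 above and pair 2 below each grey gene bar and summits in black. Most peaks of one pair sit over a peak of the other, and the unmatched peaks are in MT-ND1, MT-CO1, MT-ATP6 and MT-ND5. Bars are cut at the gene ends. The MT-CO3 peak of pair 2 has no bar above it, but by position it overlaps the pair 1 peak drawn on MT-ATP6.

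The peaks covered 4344 bp of the mitochondrial genome in pair 1 and 4287 bp in pair 2, with median lengths of 220.5 and 215 bp. They began at 1079 and 1028, within MT-RNR1, and ended at 15644 and 15675, within MT-CYB, so the control region around the origin of numbering had no peak. MT-ATP6 was the most fully covered gene, at 65.8% and 72.1%, followed by MT-CO2. MT-ND1 and MT-RNR1 of pair 1 (15.9% and 18.3%) and MT-CO1 of pair 2 (14.9%) were among the least covered genes with a summit. Leaving aside the stretch across the origin of the circular genome, the longest gap between neighbouring peaks ran from 3588 to 5136 in pair 1, where pair 2 had its further MT-ND1 peak. In pair 2 it ran from 9337 to 10871, which holds MT-ND3, MT-ND4L and most of MT-CO3. The −log10 q of the mitochondrial peaks ranged from 4.72 to 25.8 in pair 1 and from 3.46 to 21.9 in pair 2, highest at MT-CO2 and lowest at MT-ND2 in both pairs.

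Most mitochondrial peaks overlapped a peak of the other pair, and folds ranked less alike between the pairs than fragment counts did. In each pair, 15 of 18 mitochondrial peaks overlapped one of the other pair by at least 1 bp, which is 83.3% (exact 95% interval 58.6% to 96.4%, counting error only). Over all slow-higher peaks, 44.0% of pair 1 and 63.1% of pair 2 did so. These shares are not like for like. Mitochondrial peaks lie densely on a short genome, covering 4344 and 4287 bp of it, so some overlap arises from density alone. How much was not computed. Among peaks with at least 20 WT fragments, the shares were 59.1% and 100% on the ribosomal RNA contig and 39.8% and 92.4% elsewhere, so the mitochondrial share was above both in pair 1 and below both in pair 2. The pairs shared 14 regions and had 3 regions each to themselves. In the shared regions the highest summits lay 1 to 63 bp apart, with a median of 11 bp. These regions were chosen because their peaks overlap, which limits that distance. Slow fragments at these 14 regions ranked much alike in both pairs (Spearman's rho 0.74, Pearson's r of log2 values 0.79), and so did WT fragments (rho 0.73). The folds were less alike (rho 0.38, r of log2 folds 0.33). Regions of 1 pair share their libraries and are not independent replicates, so these values are a description. The fold was the higher one in pair 1 at 7 regions and in pair 2 at the other 7.

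The slow libraries kept fewer reads, so ratios of fragments before scaling were lower than the folds. Before scaling, the median ratio of slow to WT fragments was 1.04 in pair 1, with a range of 0.883 to 1.55, and 1.37 in pair 2, with a range of 1.05 to 2.24. In pair 1 this ratio was below 1 at 6 of 18 peaks, the 3 MT-ND5 peaks, MT-ND2, the middle MT-ND4 peak and the further MT-RNR2 peak. At these the deeper WT library had the higher value before scaling, and the slow library was higher once depth was scaled. At the last MT-ND5 peak and the MT-RNR2 peak the WT value was the average of a wider window. In pair 2 all 18 held more slow than WT fragments. The same held for 98.1% of the whole slow-higher list of pair 1 and 99.2% of that of pair 2. Where the WT fragments were whole, an exact interval for the ratio spanned 1 at 13 of 15 peaks of pair 1 and at 9 of 13 of pair 2. It lay above 1 at the rest. MT-CO2 was above 1 in both pairs, together with MT-ND1 in pair 1 and with MT-RNR2, MT-ND4 and MT-CYB in pair 2. A ratio of 1 before scaling is not the value for equal depth. Equal values after scaling correspond to ratios of 0.412 in pair 1 and 0.482 in pair 2. All 15 and all 13 intervals lay above 0.5. The peaks were called for an excess after scaling in these same counts, so this adds no support to the call. After scaling, 10 of 18 mitochondrial folds of pair 1 and all 18 of pair 2 were above the depth ratio, beside 97.9% and 99.1% of all slow-higher peaks. Among peaks with at least 20 WT fragments, 19 of 22 and 8 of 15 were above it on the ribosomal RNA contig. Elsewhere 223 of 251 and 86 of 92 such peaks were. The scaling was also set by all reads, duplicates included, while fragments were still counted without duplicates. The median was then 1.30 in pair 1 and 2.35 in pair 2. All 36 peaks stayed above 1, as did 99.7% of the whole slow-higher list of pair 1 and 100% of that of pair 2.

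Duplicate removal sets a ceiling on coverage, and the mitochondrial peaks came nearer to it than most peaks but not nearest. With 1 read per position and strand and the fragment lengths of 116 and 124 bp used by the caller, at most 232 fragments in pair 1 and 248 in pair 2 can cover a base. At mitochondrial summits the slow libraries reached a median of 39.2% and 31.0% of that ceiling, against 36.1% and 21.6% for WT fragments. At all other slow-higher peaks the medians were 6.03% and 4.44% in the slow libraries, against 0.590% and 0.403% for WT fragments. Peaks on the ribosomal RNA contig chrUn_gl000220 with at least 20 WT fragments stood higher, at medians of 55.8% and 62.1% in the slow libraries, and other peaks with at least 20 WT fragments lower, at 23.7% and 25.0%. In all, 22 slow-higher peaks of pair 1 and 32 of pair 2 had more slow fragments than the highest mitochondrial peak. Reads kept were 4.25% and 6.22% of all reads in the slow libraries, against 8.25% and 7.54% in the WT libraries. The mitochondrial peaks thus had high coverage and low folds together, and the part of the ceiling in the folds was not tested.

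Other peaks with much WT signal had folds of a similar size. Outside the mitochondrial genome, its copy and the ribosomal contig, at least 20 WT fragments were found at 251 slow-higher peaks of pair 1 and 92 of pair 2. Their median folds were 3.15 and 3.11, and their median ratios before scaling were 1.35 and 1.56, both somewhat above the mitochondrial values. On the ribosomal contig, which carries the genes of cytosolic ribosomal RNA, the 22 and 15 such peaks had median ratios before scaling of 1.205 and 1.03. The mitochondrial median lay below that of the contig in pair 1 and above it in pair 2. All 36 mitochondrial peaks had at least 40 slow fragments, as did 20.2% of the slow-higher list of pair 1 (380 peaks) and 14.7% of that of pair 2 (203 peaks). Peaks with at least 20 WT fragments shared this trait, at all 22 and all 15 on the ribosomal contig. Elsewhere 220 of 251 and 88 of 92 such peaks had it.

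**Figure D3:**
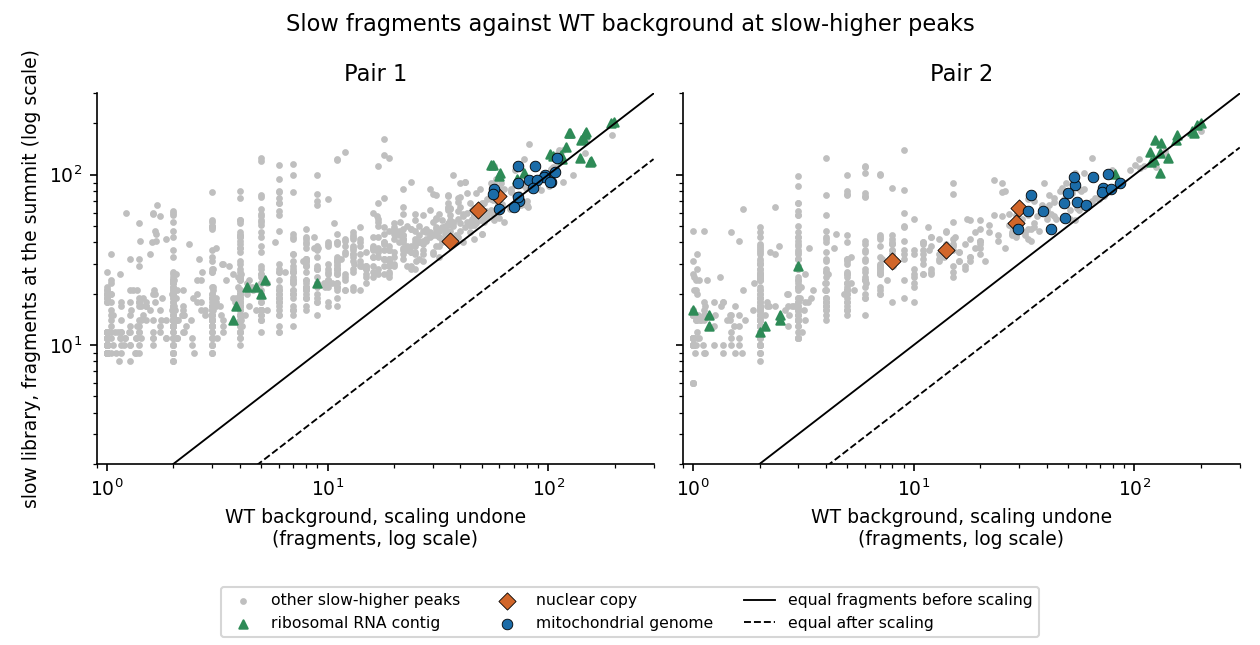
Slow fragments at the summit (y axis) against WT fragments with the scaling undone (x axis), both on log scales, for slow-higher peaks with at least 1 WT fragment in pair 1 (left) and pair 2 (right). Mitochondrial peaks (blue circles) lie along the solid line of equal fragments in pair 1, where 6 of 18 fall below it, and above it in pair 2. The dashed line marks equal values after scaling.

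The nuclear copy on chromosome 1 carried 3 peaks in pair 1 and 4 in pair 2. By its annotation in RefSeq it holds pseudogenes of 7 mitochondrial genes in the order of the mitochondrial genome, MTND1P23, MTND2P28, MTCO1P12, MTCO2P12, MTATP8P1, MTATP6P1 and MTCO3P12. That annotation is of another build (GRCh38.p14), so single peaks were not placed in single pseudogenes. The nearest slow-higher peak before the window ended 16157 bp away in pair 1 and 19349 bp away in pair 2, with folds of 5.83 and 9.75 on 5 and 9 slow fragments, and the nearest slow-higher one after it lay 638139 and 653535 bp off. The nearest WT-higher peaks lay after the window, at 2776895 and 284559 bp.

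The copy peaks recurred at fixed places. The first, chr1:564623-564747, was listed in pair 2 alone, with 31 slow against 8 WT fragments and a fold of 6.59. The second, chr1:566446-566679 over both pairs, had 41 and 36 slow against 36 and 14 WT fragments and folds of 2.65 and 4.78. The third, chr1:567257-567408, had 62 and 52 slow against 48 and 29 WT fragments and folds of 3.03 and 3.54. The fourth, chr1:569270-569571, had 75 and 64 slow against 59 and 30 WT fragments and folds of 3.00 and 4.21. At the 3 regions found in both pairs, summits lay 11 to 33 bp apart, and the fold was the higher one in pair 2 each time. Both slow and WT fragments increased from region to region along the copy in each pair.

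**Figure D4:**
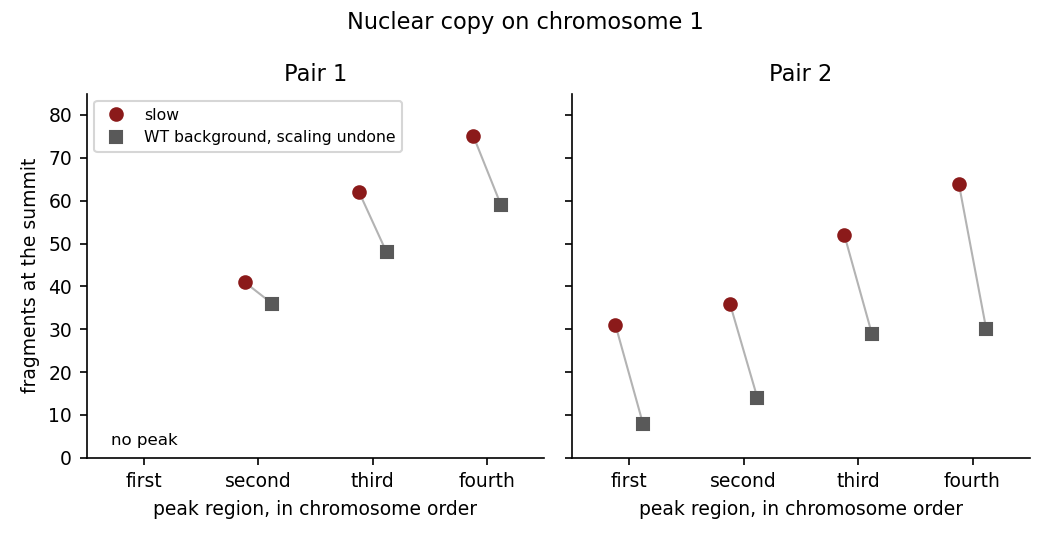
Fragments at the summit of each peak region of the nuclear copy (y axis, linear) in chromosome order (x axis), in the slow library (red circles) and in the WT library with the scaling undone (grey squares), for pair 1 (left) and pair 2 (right). In pair 1 the 3 slow values of 41 to 75 lie a little above the WT values of 36 to 59, and in pair 2 the gap is wider.

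Median folds of the copy were above the mitochondrial ones, more so in pair 2, but the ranges overlapped. The median was 3.00 in pair 1 and 4.49 in pair 2, a mean of 3.75 ± 1.05 (SD, n = 2), against 2.48 and 2.79 for the mitochondrial peaks. The pair 2 median includes the first region, which pair 1 lacks. Copy folds ran from 2.65 to 3.03 and from 3.54 to 6.59, mitochondrial ones from 2.12 to 3.67 and from 2.15 to 4.43. Before scaling the copy's median ratios were 1.27 and 2.35, against 1.04 and 1.37 for the mitochondrial peaks. All 7 copy peaks held more slow than WT fragments. The exact interval of the ratio spanned 1 at all 3 peaks of pair 1 and lay above 1 at all 4 of pair 2. The widest, at the first region of pair 2, was 1.74 to 9.76 around 3.88. All these intervals lay above 0.5, and equal values after scaling correspond to 0.412 and 0.482. This follows largely from the peak call, which used the same counts, and is no separate support. Signal was lower than on the mitochondrial genome, with median slow fragments of 62 and 44 against 91 and 77, and with median WT fragments of 48 and 21.5 against 83.9 and 53.5.

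No single offset laid all copy summits of a pair on mitochondrial ones within 30 bp. In RefSeq, the starts of 6 copied genes lie at the same distance from their mitochondrial genes within 2 bp, so copied and mitochondrial positions differ there by nearly 1 constant. No offset brought more than 2 of the 3 copy summits of pair 1 within 30 bp of a mitochondrial summit of the same list, and 6 separate offsets did that equally well. In pair 2 the most was 3 of 4, at 1 offset. Within 100 bp, a distance near the length of the shorter peaks, 1 offset reached all 3 in pair 1. In pair 2, 2 separate offsets reached all 4. Where offsets were limited to those that keep the copy between MT-ND1 and MT-CO3, the most was 2 in each pair, and 3 of all 7 copy summits at 1 common offset. Each offset was picked for having the most matches, and the number that unrelated positions would give was not computed. These counts thus cannot show whether copy and mitochondrial peaks correspond. The sources used here do not say how reads that align equally well to both places were reported, and how much of the copy's signal came from mitochondrial RNA was not tested.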

How the data were processed

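The libraries were made with an m6A enrichment kit from fragmented total RNA, per the labels' protocols. Reads were aligned with TopHat2 to hg19, per the submitters' processing notes. The caller was MACS, version 2.1.1.20160309, run on 65 bp reads at a q-value limit of 0.01, with 1 immunoprecipitated library as treatment and the same-numbered one of the other condition as control, unpooled, per the file headers. The authors' lists hold the pileup, a coverage signal of extended fragments over the summit, and the fold ratio, (pileup + 1) over (background + 1). The authors also deposited the caller's −log10 q-values, in a column whose name a spreadsheet error had replaced. Positions are those of the deposited lists (bp, hg19).

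The background was computed from pileup and fold with the caller's pseudocount of 1, and WT values were divided by the scaling factor. Summits were assigned with RefSeq's mitochondrial gene bounds (GRCh38.p14, whose mitochondrial sequence may differ from that of the files by a few bases). No assignment changed when positions were moved by up to 5 bp. Genes were named MT- from RefSeq synonyms. Intervals are exact binomial ones and cover counting error only. No test across peaks was run, since each list compares 1 library with 1 library. Members and gene lists were chosen with earlier results of these data known. The rule named all peaks of the listed genes, other mitochondrial genes as with or without a peak, and the highest and lowest folds. Alternatives were a stricter q-value, other overlap rules, other scalings and leaving out a pair. Overlap and offset rules were tested on simulated data. Motifs were not searched. Python 3.11.15, pandas 2.3.3, scipy 1.17.1 and matplotlib 3.10.9 were used.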

Additional observations from a re-analysis of the deposited data

How the results depend on the processing

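Of 49 alternatives over 21 results, 46 kept the value within its spread between pairs, its interval or 1.5 times its count. None turned a median below 1. Many of the 46 could not have moved. A mean of 2 pairs always stays within its spread when 1 pair is left out. Assignment of peaks to genes by largest overlap placed 0 peaks in another gene. The number 46 is thus no measure of how firm the results are. The median mitochondrial fold of 2.63 fell to 1.21 as a ratio of unscaled fragments and to 1.82 with scaling by all reads, the last chosen after seeing the data. The median fold of the copy, 3.75, was 1.81 as a ratio of unscaled fragments, also chosen afterwards. Both shifts follow from the scaling. Leaving out a pair moved the mitochondrial median to 2.48 to 2.79, that of the copy to 3.00 to 4.49, and the count of mitochondrial folds above the depth ratio to 10 to 18. With a −log10 q of at least 5, 16 mitochondrial peaks per pair were left on average. Joining peaks 100 bp or less apart left 15. The share found in the other pair was 66.7% with 50% reciprocal overlap. No paired analysis was possible because every fold and ratio is already taken within a same-numbered pair, so there is no unpaired fit to set a block against. Motif counts were not run, as no genome of the files' build was used here. Single peaks rest on 48 to 126 slow fragments. Most of their ratios before scaling, which lie near 1 in pair 1, have an interval that spans 1. Where WT fragments were whole, these intervals all lay above 0.5, and equal values after scaling correspond to 0.412 and 0.482. Calling the peaks as slow-higher had largely fixed that already, so it is no separate support.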
